A study of Mus musculus with 12 samples.

Results

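The smooth muscle contractile genes are 10 genes whose proteins build or drive the contractile machinery of smooth muscle: Acta2, Actg2, Myh11, Mylk, Cnn1, Tagln, Smtn, Lmod1, Des and Synm. They were picked by symbol in the platform annotation, out of 19505 named genes, with the probe of the highest mean where a gene had several. Each of the 10 had 1 probe, so all were measured and no member was lost to a filter. Their levels were compared across the colons of 4 groups of healthy male mice aged 12 to 16 weeks: double knockout mice without IL4i1 and LAO1, LAO1 knockout mice, IL4i1 knockout mice and wild type mice. Both enzymes are L-amino acid oxidases, and the study asked how their joint loss leads to inflammation of the colon.

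Each group had 3 Affymetrix arrays, 12 in all. The labels' protocols state that 4 mice were taken at random per genotype, and the sources used here do not say whether an array held the RNA of 1 mouse. Nor do they give the strain, the way each deletion was made, or the part of the colon and the layers of its wall that were taken. All values below are log2 expression values as the authors deposited them, so a difference of 1 is a factor of 2. They lay between 1.72 and 19.93 over 22206 probes, and no member reached the highest value on any array. No probe was named Il4i1, and the single Lao1 probe read 2.64 to 3.56 over all arrays, too dim to check the labels. Any pair of arrays correlated at 0.964 to 0.99 over probes and held equal values at 0.581% to 1.17% of them, so none was a copy of another.

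Smooth muscle of the colon lies in a thin layer under the mucosa and in the circular and longitudinal coats that mix and move the contents. When calcium enters the cell, calmodulin activates myosin light chain kinase, which phosphorylates the regulatory light chain of myosin and lets the motor pull on actin. Actin filaments are anchored in dense bodies, which desmin filaments tie together, and calponin, transgelin and smoothelin bind along the actin. Many genes of this machinery are switched on by serum response factor with its partner myocardin, through a promoter element named the CArG box. The same genes are also active in the muscle of blood vessels and, for several of them, in pericytes and myofibroblasts.

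The promoters of the members were read because that element is the best known control site of the family. RefSeq (GRCm38.p6) gave the 250 bases before the start for 7 of the 10 members. Actg2, Myh11 and Tagln are named only. The search was for the CArG box, a 10-letter element that reads the same way on both strands. An exact CArG box stood in 0 of the 7 windows, against 1.47% of 32851 windows of the same length. With 1 mismatch allowed, 3 of the 7 held a match, against 18.6% of all windows, and Acta2 and Lmod1 held 2 matches each, against 2.96% of windows with 2 or more. The matches to Acta2 began 84 and 34 bases before the start, those to Lmod1 189 and 164 bases before it, and the match to Synm, CCTCATAAGG, 239 bases before it. The 2 windows with the most matches are shown, with the matches in capitals. A match is a likeness of letters and not a measured binding site.
Acta2, chr19:34255374-34255623, minus strand: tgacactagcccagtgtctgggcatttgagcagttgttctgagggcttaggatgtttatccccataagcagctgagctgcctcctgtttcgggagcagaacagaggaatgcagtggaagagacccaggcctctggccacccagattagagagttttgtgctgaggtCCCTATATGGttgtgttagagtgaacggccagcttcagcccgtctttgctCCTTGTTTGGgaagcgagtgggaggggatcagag
Lmod1, chr1:135324563-135324812, plus strand: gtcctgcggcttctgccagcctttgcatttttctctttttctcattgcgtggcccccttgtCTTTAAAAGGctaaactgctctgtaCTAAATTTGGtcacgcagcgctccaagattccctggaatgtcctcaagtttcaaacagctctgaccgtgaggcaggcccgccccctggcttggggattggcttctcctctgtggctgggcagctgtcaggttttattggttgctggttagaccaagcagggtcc

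The motor comes first. Mylk encodes myosin light chain kinase, the enzyme that starts contraction, and its locus also gives telokin from an inner promoter. The sources used here do not say which of these transcripts the probe reads. Mylk read 12.13, 13.22 and 12.07 in double knockout colons, 12.78, 13.71 and 12.77 in LAO1 knockout colons, 13.39, 13.84 and 14.02 in IL4i1 knockout colons, and 13.44, 13.95 and 13.36 in wild type colons. All 3 double knockout arrays lay below all wild type and all IL4i1 knockout arrays, with double knockout replicate 2 closest to them. The group means were 12.47 ± 0.65 in double knockout colons and 13.58 ± 0.32 in wild type colons (SD, n = 3 each). The difference was -1.11 (SE 0.34, 95% interval -1.85 to -0.37), a level 2.16-fold lower in double knockout colons. With an unadjusted p of 0.00637 and an adjusted p of 0.493 in limma over all probes, it did not pass the threshold of 0.05, and it stood at rank 285 of 22206 by p.

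Myh11 encodes the heavy chain of smooth muscle myosin, the motor itself. It read 15.19, 16.38 and 14.98 in double knockout colons, 15.57, 16.26 and 16.04 in LAO1 knockout colons, 16.32, 16.68 and 16.59 in IL4i1 knockout colons, and 16.11, 16.79 and 16.46 in wild type colons. Double knockout replicates 1 and 3 lay below every wild type array, while replicate 2 lay inside the wild type range. The difference of the double knockout from wild type was -0.94 (SE 0.33, 95% interval -1.65 to -0.22, unadjusted p = 0.0142, limma adjusted p = 0.575). In bulk tissue, fewer muscle cells and less RNA per cell cannot be told apart, here and in all that follows.

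The actins form the track on which the motor runs. Acta2, the alpha actin of smooth muscle, read 16.6, 16.85 and 16.59 in double knockout colons, 16.79, 17.17 and 17.34 in LAO1 knockout colons, 17.13, 18.0 and 17.51 in IL4i1 knockout colons, and 16.88, 17.31 and 17.37 in wild type colons. The double knockout arrays all lay below the wild type arrays, though its replicate 2 was only just below wild type replicate 1. Its difference was -0.51 (SE 0.25, 95% interval -1.04 to 0.03, limma adjusted p = 0.695). Actg2 is the gamma actin of visceral muscle, the actin that marks the gut coats more than the vessels. It read 15.73, 15.91 and 15.93 in double knockout colons, 15.0, 16.47 and 16.59 in LAO1 knockout colons, 15.84, 17.38 and 16.69 in IL4i1 knockout colons, and 15.67, 16.31 and 16.58 in wild type colons. The double knockout arrays lay close together and inside the wild type range, and the lowest of all 12 was LAO1 knockout replicate 1. The difference of the double knockout from wild type was -0.33 (SE 0.43, 95% interval -1.26 to 0.6, limma adjusted p = 0.907).

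The next members bind along the actin. Cnn1 encodes calponin, which holds back the myosin ATPase. It read 15.74, 16.66 and 16.04 in double knockout colons, 15.36, 16.75 and 16.78 in LAO1 knockout colons, 16.18, 18.03 and 17.23 in IL4i1 knockout colons, and 16.2, 17.02 and 16.93 in wild type colons. The groups overlapped, with a difference of the double knockout from wild type of -0.57 (SE 0.47, limma adjusted p = 0.84). Tagln encodes transgelin, also called SM22 alpha, an early marker of the smooth muscle lineage. Its arrays were 14.79, 15.08 and 15.14 in double knockout colons, 14.77, 15.65 and 15.78 in LAO1 knockout colons, 14.53, 16.7 and 16.18 in IL4i1 knockout colons, and 14.82, 15.36 and 15.8 in wild type colons. Both the lowest and the highest Tagln value of the series were IL4i1 knockout arrays, replicates 1 and 2. The difference of the double knockout from wild type was -0.32 (SE 0.46, 95% interval -1.32 to 0.67, limma adjusted p = 0.918).

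Smtn encodes smoothelin, a protein of fully differentiated contractile smooth muscle. It read 9.56, 9.47 and 9.59 in double knockout colons, 9.08, 9.92 and 9.69 in LAO1 knockout colons, 9.76, 10.43 and 9.67 in IL4i1 knockout colons, and 9.58, 10.13 and 9.26 in wild type colons. The double knockout was the tightest group, at 9.54 ± 0.06, and it lay inside the wild type range, where the mean was 9.66 ± 0.44 (SD, n = 3 each). The difference was -0.12 (SE 0.29, 95% interval -0.73 to 0.5). Lmod1 encodes leiomodin 1, which starts new actin filaments in smooth muscle. Its values were 7.28, 8.13 and 7.23 in double knockout colons, 7.66, 7.6 and 7.43 in LAO1 knockout colons, 7.55, 8.43 and 8.53 in IL4i1 knockout colons, and 7.6, 7.76 and 7.3 in wild type colons. The difference of the double knockout from wild type was -0.01 (SE 0.3, 95% interval -0.64 to 0.63), an interval that still holds changes of up to 0.64 on the log2 scale.

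Desmin and synemin form the intermediate filaments that link dense bodies. Des read 13.47, 14.47 and 13.76 in double knockout colons, 13.31, 14.38 and 14.39 in LAO1 knockout colons, 13.99, 15.89 and 14.88 in IL4i1 knockout colons, and 14.12, 14.69 and 14.98 in wild type colons. Double knockout replicate 2 lay inside the wild type range and the other two below it, and the difference was -0.7 (SE 0.45, limma adjusted p = 0.785). Synm, whose protein joins desmin in mixed filaments, read 8.09, 9.34 and 8.55 in double knockout colons, 8.34, 9.23 and 9.26 in LAO1 knockout colons, 8.97, 10.05 and 9.94 in IL4i1 knockout colons, and 9.24, 10.01 and 9.66 in wild type colons. Again replicate 2 of the double knockout fell inside the wild type range while replicates 1 and 3 lay under it. The difference was -0.98 (SE 0.38, 95% interval -1.79 to -0.16, unadjusted p = 0.0227, limma adjusted p = 0.599).

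**Figure D1:**
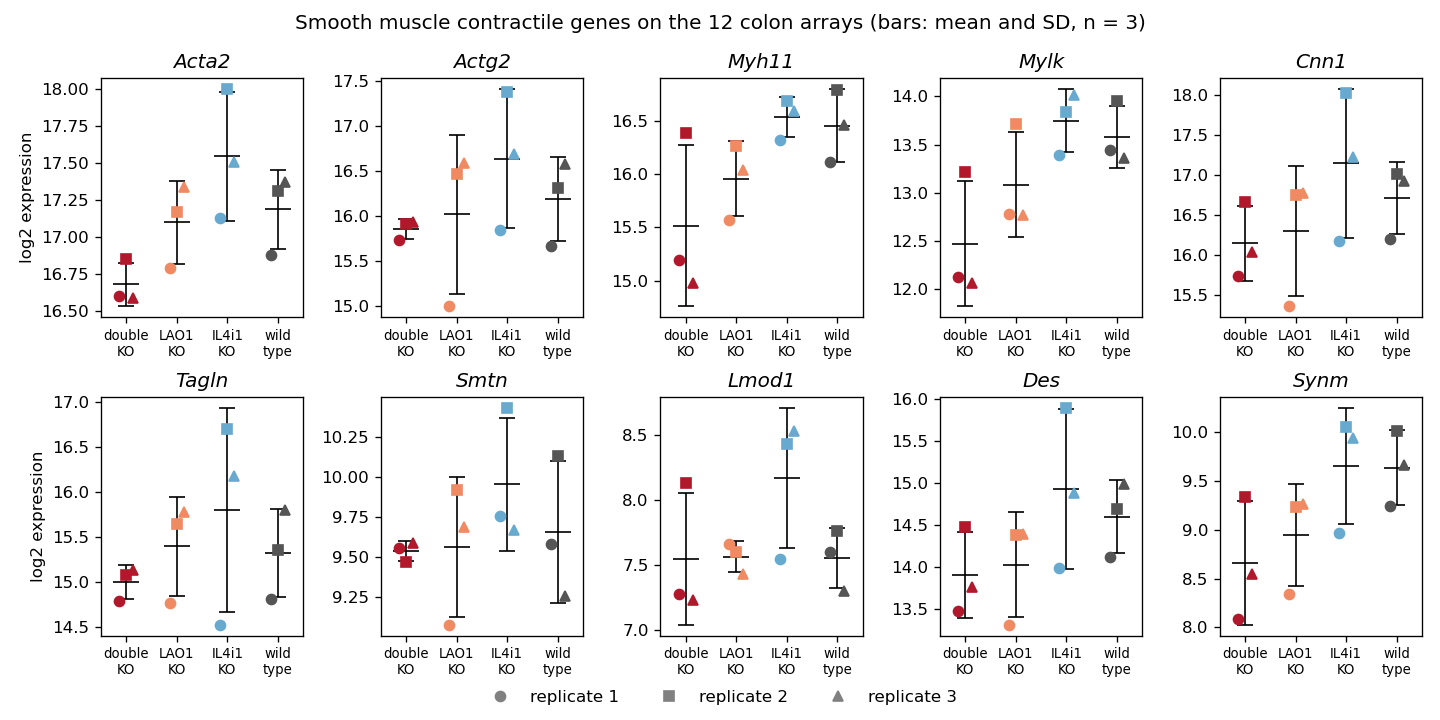
Log2 expression (vertical axis, own scale in each panel, not starting at 0) of the 10 contractile genes on each array, by genotype; bars give the mean and SD of 3 arrays and the symbol gives the replicate number. The mean of the double knockout is the lowest (level with wild type at 7.55 in Lmod1) and that of the IL4i1 knockout the highest in each panel, while single arrays of most groups overlap.

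Set side by side, the group means had the same outer ends in each member. The double knockout had the lowest mean in 10 of 10 and the IL4i1 knockout the highest in 10 of 10. In 8 members the order from low to high was double knockout, LAO1 knockout, wild type, IL4i1 knockout, and in Tagln and Lmod1 the LAO1 knockout stood above wild type. No neighbouring pair in these orders differed past the threshold, and the members vary together from array to array, so the 10 orders are not 10 independent observations.

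For the double knockout against wild type, limma called 0 of the 10 members at an adjusted p under 0.05, against 0.0225% of all probes. At an unadjusted p under 0.05 there were 3, Mylk, Myh11 and Synm, all lower, against 3.81% of probes that were lower at that level. The difference was below 0 in 10 of 10 members, against 49.5% of probes, with a median of -0.54 over the members and 0.0 over all probes. The groups did not overlap in 2 members, Acta2 and Mylk, against 5.95% of probes with all double knockout arrays lower. The adjusted p lay between 0.493 and 0.997. Without double knockout replicate 2 the median was -0.71 and Mylk differed by -1.48 (limma adjusted p = 0.116) and Myh11 by -1.37 (limma adjusted p = 0.0782), still with 0 members called.

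The contrast between the double and the IL4i1 knockout had the largest median difference of the 7 comparisons for these genes. Here too 0 of 10 members passed limma's test, against 0.477% of probes, and 5 had an unadjusted p under 0.05, all lower in double knockout colons, against 4.66% of probes. Mylk differed by -1.28 (SE 0.34, 95% interval -2.02 to -0.54, unadjusted p = 0.00249, limma adjusted p = 0.172), which is 2.42-fold lower in double knockout colons. Next stood Acta2 with -0.87 (SE 0.25, limma adjusted p = 0.204), Myh11 with -1.01 (SE 0.33, limma adjusted p = 0.281), Synm with -0.99 (SE 0.38, limma adjusted p = 0.4) and Des with -1.02 (SE 0.45, limma adjusted p = 0.481). The 3 members without overlap between these groups were Acta2, Mylk and Smtn, against 6.62% of probes. The median over the members was -0.93, and -0.02 over all probes. With the replicate number as a block in the fit, 1 member was called, Mylk at -1.28 (limma adjusted p = 0.0429).

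That contrast moved in opposite ways when either of 2 arrays was left out. Without double knockout replicate 2, the count of members called became 2, with Mylk at -1.65 (limma adjusted p = 0.0336) and Myh11 at -1.44 (limma adjusted p = 0.0277). Without IL4i1 knockout replicate 2, the count was 0, the median -0.55 and the Mylk difference -1.23 (limma adjusted p = 0.324). The comparison with wild type and the comparison with the IL4i1 knockout use the same double knockout arrays, so neither is a check of the other.

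Each single knockout was also compared with wild type. In the LAO1 knockout 0 members passed limma's test, against 0.0045% of probes, and 0 had an unadjusted p under 0.05, against 3.02% of probes. Synm had the smallest p, at -0.69 (SE 0.38, 95% interval -1.51 to 0.12, limma adjusted p = 1), followed by Myh11 at -0.5 (SE 0.33) and Mylk at -0.5 (SE 0.34). The median was -0.29 over the members, 8 of which lay below 0, against 48.5% of probes, and it was 0.01 without LAO1 knockout replicate 1.

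In the IL4i1 knockout 0 members passed limma's test, against 0.0135% of probes, and 0 had an unadjusted p under 0.05, against 7.58%. The difference from wild type was above 0 in 10 of 10 members, against 53.0% of probes, from 0.02 in Synm to 0.62 in Lmod1. Lmod1 differed by 0.62 (SE 0.3, 95% interval -0.02 to 1.25, limma adjusted p = 0.657). The median of 0.34 rested on 1 array: without IL4i1 knockout replicate 2 it was 0.04, and Cnn1 (-0.01), Des (-0.16) and Synm (-0.18) then lay below wild type.

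Against the LAO1 knockout, the double knockout had 0 members called by limma, against 0.14% of probes, and 0 at an unadjusted p under 0.05, against 7.15%. The differences ran from -0.61 in Mylk (SE 0.34, limma adjusted p = 0.779) to -0.02 in Smtn and Lmod1, with a median of -0.22. That median was -0.6 without LAO1 knockout replicate 1, -0.42 without double knockout replicate 2, -0.1 without LAO1 knockout replicate 3, and -0.07 without double knockout replicate 1 or without LAO1 knockout replicate 2. Mylk differed by -0.99 without double knockout replicate 2 (limma adjusted p = 0.38) and by -0.3 without LAO1 knockout replicate 2 (limma adjusted p = 0.988). In the LAO1 against the IL4i1 knockout, 0 were called, against 0.0045% of probes, and 0 had an unadjusted p under 0.05, against 5.84%, with differences from -0.89 in Des to -0.39 in Smtn. Their median of -0.61 was -0.97 without IL4i1 knockout replicate 1, -0.41 without IL4i1 knockout replicate 2 and -0.38 without LAO1 knockout replicate 1. Myh11 alone did not overlap there, against 5.83% of probes with all LAO1 knockout arrays lower.

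Whether losing both genes did more than the sum of the single losses was asked with the interaction, in which the 2 single knockout differences from wild type are taken from that of the double knockout. Limma called 0 of 10 members, against 0.23% of probes, and 1 had an unadjusted p under 0.05, against 7.12%. That member was Acta2, at -0.78 (SE 0.35, 95% interval -1.54 to -0.02, unadjusted p = 0.0443, limma adjusted p = 0.693). Mylk was at -0.78 too, with a wider error (SE 0.49, limma adjusted p = 0.814). The values ran from -0.87 in Tagln to -0.3 in Synm, with a median of -0.6 against -0.04 over all probes and 53.4% of probes below 0. The median was -0.95 without IL4i1 knockout replicate 1, -0.33 without IL4i1 knockout replicate 2, -0.35 without wild type replicate 1 and -0.38 without LAO1 knockout replicate 2. Without double knockout replicate 2 it was -0.85, with Mylk at -1.15 (limma adjusted p = 0.507).

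**Figure D2:**
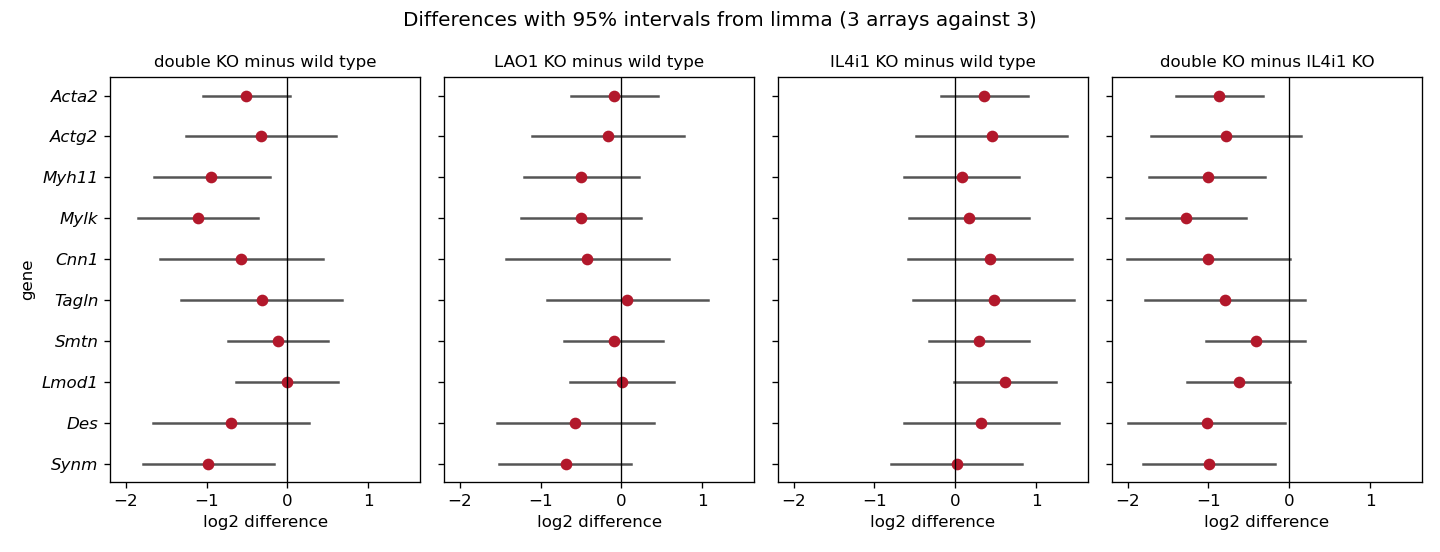
Log2 difference (horizontal axis) of each contractile gene with its 95% interval from limma, in 4 of the comparisons, each with 3 arrays against 3. Intervals of Mylk, Myh11 and Synm lie wholly below 0 in the double knockout against wild type, and those of Mylk, Acta2, Myh11, Synm and Des in the double against the IL4i1 knockout; none passed after adjustment over all probes.

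On some arrays the whole family lay high or low together, while on others its members were split. Averaged over the 10 members, the deviation from each gene's own mean was -0.7, -0.01 and -0.57 in double knockout colons, -0.69, 0.16 and 0.05 in LAO1 knockout colons, -0.19, 0.99 and 0.57 in IL4i1 knockout colons, and -0.19, 0.38 and 0.21 in wild type colons. The group means of this deviation were -0.42 ± 0.37 in double knockout colons, -0.16 ± 0.46 in LAO1 knockout colons, 0.45 ± 0.6 in IL4i1 knockout colons and 0.13 ± 0.29 in wild type colons (SD, n = 3 each). All 10 members lay below their own mean on double knockout replicates 1 and 3 and on LAO1 knockout replicate 1, and all 10 above it on IL4i1 knockout replicate 2. Double knockout replicate 2 had 5 members above and 5 below. The highest array was IL4i1 knockout replicate 2 for 7 members, IL4i1 knockout replicate 3 for Mylk and Lmod1, and wild type replicate 2 for Myh11.

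**Figure D3:**
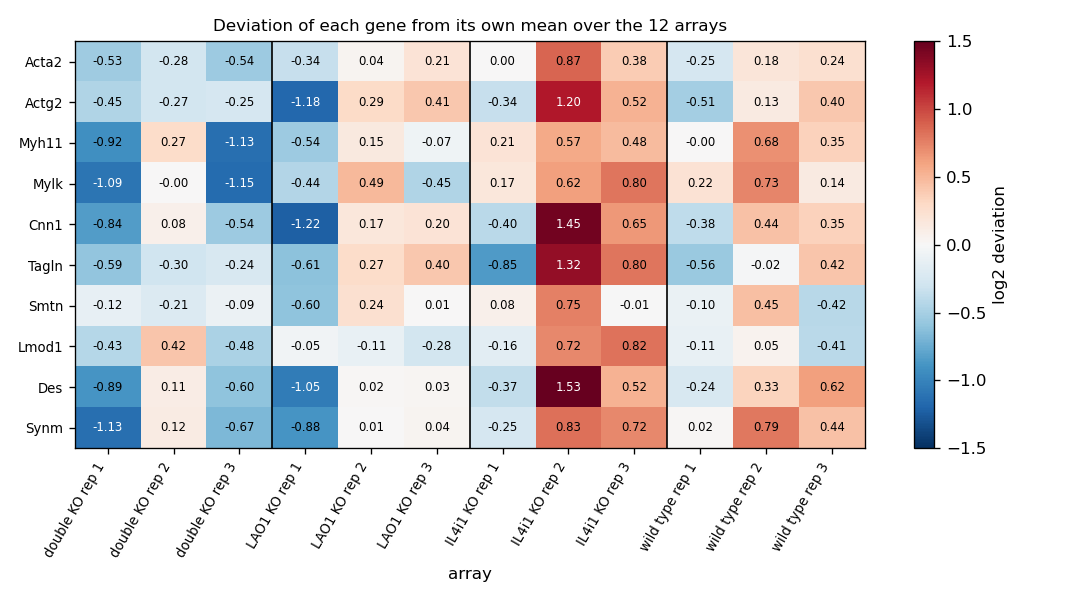
Deviation of each contractile gene (rows) from its own mean over the 12 arrays (columns), in log2 units, with double knockout arrays at the left and wild type at the right. Some whole columns share a colour: LAO1 knockout replicate 1 is low in all 10 genes and IL4i1 knockout replicate 2 is high in all 10.

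Within this shared movement the members differed among themselves. Taken relative to the mean of the 10, the double knockout minus wild type was -0.55 for Mylk, -0.42 for Synm and -0.38 for Myh11, so the kinase, synemin and the motor lay lower than the family as a whole. It was 0.55 for Lmod1, 0.44 for Smtn and 0.23 for both Actg2 and Tagln, and near 0 for Acta2 (0.05) and Cnn1 (-0.01). These are differences of differences without a test of their own. On double knockout replicate 2, Mylk (0.0), Synm (0.12) and Myh11 (0.27) did not lie below the mean of the 10. On replicates 1 and 3 they did.

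The members were correlated with one another over the 12 arrays, and these values are given as a description, since the genes were chosen as a family. Over the 45 pairs, Pearson's r ran from 0.42 to 0.98 with a median of 0.71, and Spearman's rank correlation from 0.28 to 0.96 with a median of 0.72. After each genotype's mean was taken out, r still ran from 0.19 to 0.98, with a median of 0.67. The closest pair was Cnn1 and Des (r = 0.98, rank correlation 0.96, within genotypes 0.98), the next Actg2 and Cnn1 (r = 0.95) and Myh11 and Mylk (r = 0.94). Lmod1 and Smtn were the loosest pair (r = 0.42). The pairs were also read without the 2 arrays farthest from the median of 1 gene of the pair. Then 44 of 45 pairs stayed above 0, with a median of 0.68, and the exception, Tagln with Lmod1, had -0.15. Some pairs fell far, as Des with Smtn from 0.63 to 0.01 and Actg2 with Smtn from 0.7 to 0.13. Myh11 with Smtn rose from 0.48 to 0.68. Against the mean of the other 9, Cnn1 reached 0.97 and Des 0.96, while Lmod1 had 0.66 and Smtn 0.65.

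Of the 9970 other named genes brighter than the median probe, ranked by their correlation with the members' mean over 12 arrays, Psd was the most alike (r = 0.953, within genotypes 0.958). It encodes an exchange factor for the small GTPase Arf6, and its means were 6.8 in double knockout colons, 7.1 in LAO1 knockout colons, 7.59 in IL4i1 knockout colons and 7.12 in wild type colons. Next came the kinase Dmpk (r = 0.945), the alpha-actinin partner Pdlim3 (0.944), the myosin-binding Myom1 (0.936), the guanylate cyclase subunit Gucy1b1 (0.935) and the myosin regulatory light chain Myl9 (0.933). Clmp (0.932), Synpo2 (0.928), Cryab (0.922), Popdc2 (0.917), Sparcl1 (0.916) and Tns1 (0.913) completed the first 12. Myl9 read 13.03 ± 0.36 in double knockout colons, 13.55 ± 0.46 in LAO1 knockout colons, 13.91 ± 0.61 in IL4i1 knockout colons and 13.81 ± 0.37 in wild type colons (SD, n = 3 each). The genes that ran most against the members were Nup50 (r = -0.945), Uggt1 (-0.896), Sh3bp2 (-0.895), Apobec3 (-0.891) and Ddx21 (-0.885).

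The rest of the contractile pathway was read through 6 wider lists, none of which had a member called by limma in any comparison. Over all probes the share called was 0.0045% to 0.477%, depending on the comparison. Of the other thin filament and motor proteins, 13 of 14 listed were measured, and 7 lay lower in double knockout colons than in wild type colons (median -0.2). In LAO1 knockout colons 9 of the 13 lay lower than in wild type colons (median -0.04). In double knockout colons Myl9 differed by -0.77 from wild type (limma adjusted p = 0.645), while Cnn3, a calponin found outside smooth muscle too, differed by 0.66 (limma adjusted p = 0.631). Cald1, caldesmon, differed from wild type by -0.74 in double knockout colons (limma adjusted p = 0.724) and by -0.85 in LAO1 knockout colons (limma adjusted p = 1). Of 22 measured dense body, adhesion and cytoskeleton genes, 17 lay lower in double knockout colons (median -0.27) and 20 in LAO1 knockout colons (median -0.19). In double knockout colons the actin-bundling Palld differed by -0.95 (limma adjusted p = 0.557) and the LIM protein Csrp1 by -0.72 (limma adjusted p = 0.579). Filip1l had its smallest p in IL4i1 knockout colons, at -0.57 (limma adjusted p = 0.587).

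Among the 10 measured genes of myosin phosphorylation and calcium sensitivity, 9 lay lower in double knockout colons than in wild type colons (median -0.24). In LAO1 knockout colons 9 lay lower than in wild type colons too (median -0.1). Ppp1r14a, the inhibitor of myosin phosphatase known as CPI-17, differed by -0.73 in double knockout colons (limma adjusted p = 0.618). Dapk3, a kinase that acts on the same phosphatase, went the other way. It averaged 9.59 ± 0.15 in double knockout colons, 9.5 ± 0.17 in LAO1 knockout colons, 9.48 ± 0.3 in IL4i1 knockout colons and 8.96 ± 0.28 in wild type colons (SD, n = 3 each). The differences from wild type were 0.63 for the double, 0.54 for the LAO1 and 0.52 for the IL4i1 knockout. The limma adjusted p was 0.557 in double knockout colons, 1 in LAO1 knockout colons and 0.622 in IL4i1 knockout colons, so none passed. The 3 comparisons share the wild type arrays.

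All 13 measured transcription regulators of smooth muscle lay lower in double knockout colons than in wild type colons, by a median of only -0.15. In LAO1 knockout colons 10 of the 13 lay lower than in wild type colons (median -0.11). Srf, the factor that binds the CArG box, read 8.88, 8.37 and 7.99 in double knockout colons and 8.8, 8.88 and 7.97 in wild type colons, a difference of -0.14 (SE 0.27, limma adjusted p = 0.948). Its partner Myocd was dim, at 4.49, 4.55 and 3.53 in double knockout colons and 4.25, 4.15 and 4.34 in wild type colons, with a difference of -0.06 (SE 0.34, limma adjusted p = 0.987). For both genes the groups overlapped. Hexim1 had the smallest p of the list in double knockout colons, at -0.47 (limma adjusted p = 0.631), followed by Meis1 at -0.55 (limma adjusted p = 0.726). Gata6 had its smallest p in IL4i1 knockout colons, at -0.61 (limma adjusted p = 0.635).

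Ion channels and calcium handling genes had a median of -0.33 in the double knockout against wild type, with 10 of 13 measured genes lower. In the LAO1 knockout against wild type 10 of the 13 were lower too (median -0.12). Casq2, which stores calcium in the sarcoplasmic reticulum, was dim. Its difference in double knockout colons was -0.84 from wild type (SE 0.26, limma adjusted p = 0.493) and -1.1 from the IL4i1 knockout (limma adjusted p = 0.109). Kcnmb1, the beta subunit of the BK potassium channel, stood out for another pattern, with 9.85 ± 0.07 in double knockout colons, 9.85 ± 0.09 in LAO1 knockout colons, 10.5 ± 0.23 in IL4i1 knockout colons and 9.77 ± 0.16 in wild type colons (SD, n = 3 each). Its difference between the IL4i1 knockout and wild type was 0.73 (SE 0.18, limma adjusted p = 0.506). Cacnb2, a calcium channel subunit, differed by -0.64 in double knockout colons (limma adjusted p = 0.619). Of the 13 measured receptors and cyclic GMP genes, 10 lay lower in double knockout colons than in wild type colons (median -0.12), among them the cyclic GMP phosphodiesterase Pde5a at -0.64 (limma adjusted p = 0.632). In LAO1 knockout colons 4 of the 13 lay lower than in wild type colons and 8 higher (median 0.02). In the IL4i1 knockout 10 of the 13 lay higher (median 0.23), with the smallest p for the serotonin receptor Htr2b, at 0.94 (limma adjusted p = 0.52), and then the muscarinic receptor Chrm2, at 0.58 (limma adjusted p = 0.601). Htr2b was dim, with means of 4.64 in IL4i1 knockout colons and 3.7 in wild type colons.

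Markers of the other cells in a piece of colon were read beside the members. Epithelial markers were bright on all 12 arrays. Epcam, an adhesion protein of epithelia, read 14.82 to 16.3, and the mucin Muc2 read 19.91 to 19.93, at or next to the highest value in the table, so its level there is only a lower bound. The mean of 12 epithelial markers spanned 16.1 to 16.46 in double knockout colons, 15.63 to 16.23 in LAO1 knockout colons, 15.46 to 16.83 in IL4i1 knockout colons and 16.0 to 16.28 in wild type colons. The lowest and the highest of these were IL4i1 knockout replicates 3 and 2, arrays on both of which the contractile genes were high. Of all marker genes, 1 passed limma's test in any comparison, the epithelial galectin Lgals4 in the double against the LAO1 knockout (1.58, limma adjusted p = 0.0218). Over all probes 0.14% passed in that comparison. In double knockout colons Lgals4 also differed by 1.42 from wild type (limma adjusted p = 0.114) and by 0.75 from the IL4i1 knockout (limma adjusted p = 0.302).

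Lists of stromal and neural markers were read array by array in the same way. The mean of 6 markers of interstitial cells of Cajal, the pacemakers of the gut, spanned 8.89 to 9.91 in double knockout colons, 9.5 to 9.95 in LAO1 knockout colons, 9.37 to 10.41 in IL4i1 knockout colons and 9.61 to 10.06 in wild type colons, lowest on double knockout replicate 1. The 8 markers of pericytes and vascular smooth muscle spanned 5.8 to 6.57 in double knockout colons, 6.12 to 6.49 in LAO1 knockout colons, 6.47 to 6.78 in IL4i1 knockout colons and 6.36 to 6.58 in wild type colons. For 9 fibroblast markers the span was 8.72 to 10.44 in double knockout colons, 9.53 to 9.79 in LAO1 knockout colons, 9.09 to 9.84 in IL4i1 knockout colons and 9.69 to 10.42 in wild type colons. Both of these lists were lowest on double knockout replicate 3, where all 10 contractile genes lay below their means. The mean of 11 enteric neuron markers spanned 5.18 to 5.43 in double knockout colons, 5.16 to 5.74 in LAO1 knockout colons, 5.53 to 5.97 in IL4i1 knockout colons and 5.42 to 5.54 in wild type colons, highest on IL4i1 knockout replicate 2. On that array, where all 10 contractile genes lay above their means, the Cajal (9.37), fibroblast (9.09) and pericyte (6.47) means were the lowest of the IL4i1 knockout arrays. The double knockout minus wild type median was -0.55 for fibroblast markers (8 of 9 lower), beside -0.54 for the contractile genes. It was -0.43 for Cajal markers (4 of 6 lower), -0.18 for neuron markers (9 of 11) and -0.1 for pericyte markers (5 of 8). In the LAO1 knockout the fibroblast median was -0.37 (9 of 9 lower), beside -0.29 for the contractile genes. The part of these cells in the contractile gene differences was not tested.

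The mean of 7 endothelial markers spanned 5.09 to 5.89 in double knockout colons, 5.69 to 6.14 in LAO1 knockout colons, 4.88 to 6.1 in IL4i1 knockout colons and 5.74 to 6.2 in wild type colons. Enteric glia (5 markers) spanned 5.38 to 5.96 in double knockout colons, 5.31 to 5.72 in LAO1 knockout colons, 5.79 to 5.99 in IL4i1 knockout colons and 5.76 to 5.96 in wild type colons, and adipocytes (5 markers) 4.21 to 4.9 in double knockout colons, 4.69 to 4.91 in LAO1 knockout colons, 4.69 to 5.82 in IL4i1 knockout colons and 5.17 to 5.55 in wild type colons. Of these lists the adipocyte one had all double knockout arrays below all wild type arrays. All LAO1 knockout arrays lay below all wild type arrays in that list too, and also in the glial list. Mesothelium (6 markers) spanned 3.97 to 4.34 in double knockout colons, 3.98 to 4.49 in LAO1 knockout colons, 4.18 to 4.47 in IL4i1 knockout colons and 4.19 to 4.58 in wild type colons. The 12 markers of striated muscle were dim, at 4.45 to 4.6 in double knockout colons, 4.43 to 4.53 in LAO1 knockout colons, 4.33 to 4.8 in IL4i1 knockout colons and 4.27 to 4.64 in wild type colons, with 9 of 12 below a mean of 5. The double knockout minus wild type median was -0.77 for adipocyte markers (4 of 5 lower) and -0.46 for endothelial markers (7 of 7). It was -0.25 for glial markers (4 of 5 lower) and -0.15 for mesothelial markers (5 of 6). For striated muscle markers it was 0.2 (3 of 12 lower) and for epithelial markers 0.1 (4 of 12).

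Among the arrays, 2 carried marks of their own. Double knockout replicate 2 had a mean of 15.58 over 9 pancreatic acinar markers, against 4.53 to 5.37 on the other 11 arrays, with Cpa1 at 18.12 there. On it 5 of the 10 contractile genes lay above and 5 below their own means, with a mean deviation of -0.01. The values without this array stand beside the 4 comparisons that use double knockout arrays. IL4i1 knockout replicate 2, the array with the highest contractile genes, had the lowest mean of 8 leukocyte markers, at 6.24, while the leukocyte mean was 7.54 to 8.22 in double knockout colons, 7.35 to 8.09 in LAO1 knockout colons, 7.97 and 7.45 on the other IL4i1 knockout arrays and 7.34 to 8.48 in wild type colons. It also had the highest epithelial mean and the lowest endothelial mean, 4.88. What part these marks had in the contractile gene levels was not tested.

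**Figure D4:**
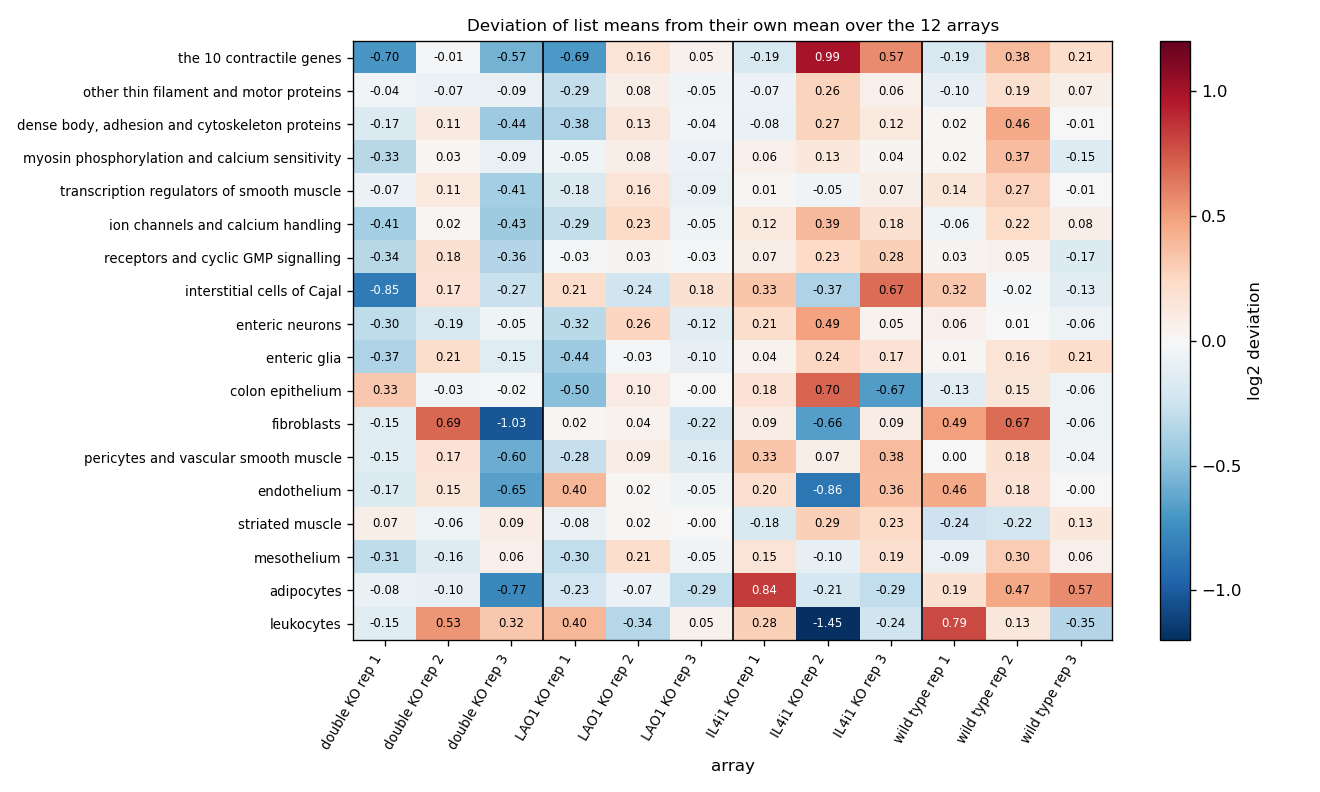
Deviation of the mean of each gene list (rows) from its own mean over the 12 arrays (columns), in log2 units, with pancreatic acinar markers left out for scale. The contractile genes form the top row, at -0.7 on double knockout replicate 1 and -0.57 on replicate 3. On replicate 1 the Cajal markers lie lower still (-0.85), and on replicate 3 so do the fibroblast (-1.03), adipocyte (-0.77), endothelial (-0.65) and pericyte (-0.6) markers.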

How the data were processed

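Colon RNA was measured on 12 Affymetrix arrays. The authors deposited log2 expression values in 1 table of 22206 probes. Transcriptome Analysis Console was used, per the submitters' processing notes, and the summarisation, normalization and genome build are not given in the sources used here. Values were used as deposited, without a filter. Groups and replicate numbers come from the labels. The platform annotation, which can be old, gave 1 symbol for 19572 probes and none for 2634.

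One limma 3.58.1 fit (R 4.3.3; lmFit and eBayes) over the 12 arrays (genotype means, 8 residual degrees of freedom) gave 7 comparisons, with p-values adjusted by Benjamini-Hochberg over all probes. It was tested on simulated data with changes larger than any member difference, so that test does not cover differences of the members' size. Differences are first-named group minus second. Named genes were the 10 members, the 12 most and 5 least correlated of the brighter genes, the 3 smallest p per wider list (1 gene is not reported here), and any list gene past the threshold; Srf, Myocd, Cpa1, Muc2 and Epcam were added for what they are known to do. The members and lists were chosen with earlier results of these data known. Nothing says that the arrays of a group came from separate mice, so the p-values measure only spread between samples, some of which may be technical. Figures used Python 3.11.15 and matplotlib 3.10.9.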

Additional observations from a re-analysis of the deposited data

How the results depend on the processing

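The 70 member differences were recomputed 890 times, with limma on only the compared arrays, the replicate number as a block, quantile normalization, array median centring, only probes above the 40th percentile of brightness, trend and robust variance, and without each array in turn. Of these, 844 kept their direction and their side of the threshold, 3 came past it, and 43, in 20 differences, turned direction. The sources used here do not say whether the numbers 1 to 3 pair the arrays. Over raw levels any pair of arrays reached 0.964 to 0.99, so the numbers were compared on another scale than raw levels. There, same-numbered arrays correlated at -0.142 to 0.218, above 0.1 in 7 of 18 pairs. The closest array of another group had the same number in 8 of 18, with 3 arrays to choose from in each group. These values are too weak to settle whether the numbers mark a shared batch or litter. With the replicate block, 1 member was called in the double against the IL4i1 knockout, Mylk at -1.28 (limma adjusted p = 0.0429), and 166 probes in place of 106. Without single arrays the count there was 0 to 2 members. Over all alternatives the limma adjusted p of Mylk was 0.0336 to 0.506 in that comparison and 0.116 to 0.982 against wild type.

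The members' median, without each array, was -0.74 to -0.42 in the double knockout against wild type, -0.52 to 0.01 in the LAO1 knockout against wild type, 0.04 to 0.68 in the IL4i1 knockout against wild type, -1.26 to -0.55 in the double against the IL4i1 knockout, -0.6 to -0.07 in the double against the LAO1 knockout, -0.97 to -0.38 in the LAO1 against the IL4i1 knockout and -0.95 to -0.33 in the interaction. The differences that turned direction did so as follows. Synm in the IL4i1 knockout against wild type was -0.02 under array median centring and -0.18 to 0.36 without each array; Myh11 was -0.1 to 0.24, Cnn1 -0.01 to 0.91 and Des -0.16 to 0.79. In the double knockout against wild type Lmod1 was -0.3 to 0.15 and Smtn -0.32 to 0.12. In the LAO1 knockout against wild type Acta2 was -0.24 to 0.07, Actg2 -0.45 to 0.34, Tagln -0.18 to 0.39, Cnn1 -0.68 to 0.05, Lmod1 -0.12 to 0.11 and Smtn -0.29 to 0.15. In the double against the LAO1 knockout Actg2 was -0.67 to 0.12, Cnn1 -0.62 to 0.09, Des -0.48 to 0.09, Lmod1 -0.31 to 0.14, Synm -0.62 to 0.0 and Smtn -0.26 to 0.16. Tagln in the LAO1 against the IL4i1 knockout was -1.04 to 0.04, and Des in the interaction -0.92 to 0.04. The cause was not tested.

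Counts of all probes called moved more. Against wild type the double knockout had 5, with 2 on only the compared arrays, 11 with trend and robust variance and 1 to 38 without each array, and the IL4i1 knockout 3, with 8 with trend and robust variance and 2 to 5 without each array. The LAO1 knockout against wild type had 1, and 1 to 4 without each array. The double against the IL4i1 knockout had 106, with 33 on only the compared arrays and 46 to 174 without each array. The LAO1 against the IL4i1 knockout had 1, with 0 on only the compared arrays, 3 with the block or with trend and robust variance, and 2 with centring. The double against the LAO1 knockout had 31, and 11 to 68 without each array. With 3 arrays a group, a member difference of about 1 on the log2 scale did not pass, and smaller changes may be missed.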
